A study of Mus musculus with 31 samples.

Results

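Exon usage in the cortex of mice homozygous for the Q175 allele of huntingtin was compared with that of wild-type (WT) mice. Q175 is a knock-in line of Huntington's disease (HD), in which the mouse's own huntingtin gene carries an expanded CAG repeat under its own promoter. All 3 libraries labelled 175Q/175Q (HOMO) and the 5 WT libraries that list the same events were used, which is 8 of the 31 mice of the study, and the 1839 splicing events listed in all 8 mice were analysed. The measurement was RASL-seq, in which pairs of oligonucleotides anneal to RNA on both sides of a known splice junction and are ligated, amplified and counted by sequencing.

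The HOMO mice had 175 glutamines on both huntingtin alleles and therefore no normal allele, and the WT mice had 7 on both. Q175 heterozygotes (HET, 4 mice, 175 and 7 glutamines) were measured on the same events and are used here only for the estimate of the spread and for values set side by side. Per the methods, Q175 mice carried the Htttm1Mfc allele on a B6J background, were 18 months old and were balanced for sex and matched for age. The titles name all knock-in mice Q150 and the genotype labels of both lines begin with Q175, so the line was taken from the glutamine numbers. HOMO mice of the Q150 line, set beside Q175 below, carried the Q150 repeat on both huntingtin alleles by their labels. WT mice of the Q150 set had 7 glutamines on both. Per the methods, mice of the Q150 line were 7 months old. The numbers of homozygotes in the methods differ from those in the labels for both lines, whereas a supplementary figure legend of the paper gives the numbers of the labels. No mouse was treated, and RNA came from 1 hemisphere of cortex per mouse. HOMO mice are replicates 1 to 3 and WT mice replicates 6 to 10, and values are given in that order throughout.

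A cassette exon can be kept in or left out of a messenger RNA, and the choice is made by RNA-binding proteins that bind the exon and the introns beside it. Neurons use many such exons, among them exons of glutamate receptors, neurexins, kinases and cytoskeletal proteins, so that 1 gene yields proteins with different partners, locations or kinetics. Expanded huntingtin binds other proteins abnormally, RNA-binding proteins among them, and altered splicing in HD brain has been a question since such interactions were found. Here 2 counts were made for each event, the short one of the junction formed when the exon is skipped and the long one of a junction formed when it is kept. Exclusion is the short count as a percentage of both. Of the 1839 events 1772 are cassette exons, and for the other types the short share is also called exclusion, though no single exon is skipped or kept.

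Short and long counts of the 8 mice summed to between 3711567 and 5256516 per mouse, and no listed junction had fewer than 4 counts in any of them. No pair of mice of the same group agreed within sampling noise, since chi-square per degree of freedom over all junctions was between 5.80 and 18.1. It was 5.80 between HOMO replicates 2 and 3, 11.4 and 18.1 for the pairs with HOMO replicate 1, and at most 12.1 among WT mice. No event of Htt is on the list, so the genotype could not be checked from these counts. The neuronal markers Syt1, Grin1, Mtap2 and Camk2b were counted in every mouse, while no marker of microglia or of striatal projection neurons from the lists used is on the panel, so cortex could not be told from other brain regions. All HOMO mice have mouse numbers over 1000, whereas WT replicates 6, 7 and 8 are numbered under 1000 and only replicates 9 and 10 over it. The HOMO mice are numbered 8179, 3857 and 3880, and WT replicates 9 and 10 are numbered 3878 and 3903. No WT mouse is thus numbered near HOMO replicate 1, and the cut at 1000 was set here. What the number series stands for is not given in the sources used here. Results are therefore also given for the 3 HOMO mice against those 2 WT mice, and with the series as a term of the fit.

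Exclusion was more often higher than lower in HOMO cortex. Of 1839 events, 130 passed limma's test of the log2 short to long ratio at an adjusted p under 0.05, a background of 7.07%. Exclusion was higher in HOMO for 103 of them (5.6% of events tested) and lower for 27 (1.47%), in 124 genes. In 115 of the 130 the HOMO and WT mice did not overlap. Over all 1839 events, 250 had such a separation (13.6%), 177 with HOMO above WT (9.62%) and 73 with HOMO below (3.97%). The changes were mostly moderate. The median called event moved by 5.69 percentage points, 17 events moved by 10 points or more, and 56 by less than 5. The log2 change over all events had a median of 0.07. When each mouse was centred on its median event, 121 events passed, of which 71 were higher and 50 lower, so the share of higher calls was 58.7% in place of 79.2%. Without the variance trend, which lets the spread depend on the counts, 39 events passed (30 higher, 9 lower), and 24 of the 50 events named below kept their call. These were the events of Hnrpdl, Ybx1, Grin1, Ahi1, Mag, Celf4, Centg1, mKIAA1232, Sort1, Arfgap1, Arhgef12, Smarca4, Rnf112, 1300010M03Rik, Urgcp, Pcsk7, Commd8, Ptk2b, Pisd and Napor-1, the 3 of Camk2d and the first of Rbfox2, while the call of every other named event was lost in that fit (adjusted p = 0.0528 to 0.148). Among the HOMO and WT mice numbered over 1000, 113 events passed (91 higher, 22 lower), and with the series as a term 82 passed (64 higher, 18 lower). Leaving out 1 HOMO mouse moved the count to 74 (replicate 1), 84 (replicate 2) or 74 (replicate 3), and leaving out WT replicate 9 moved the lower calls from 27 to 13 and WT replicate 8 to 16.

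**Figure D1:**
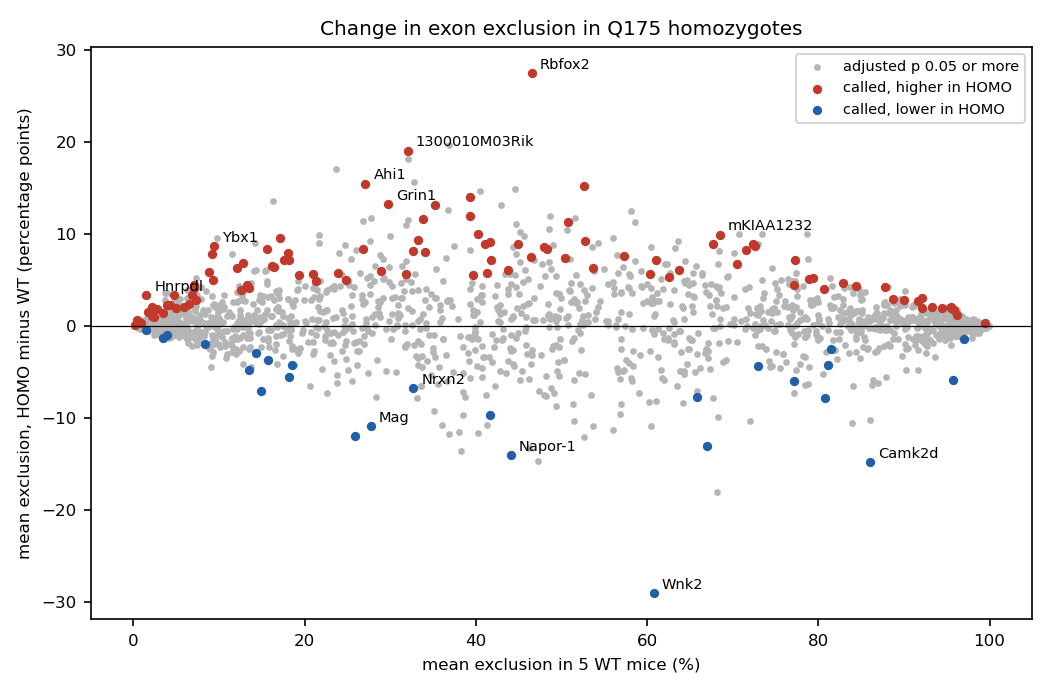
Mean exclusion in the 5 WT mice (x axis, %) against the difference of the HOMO and WT means (y axis, percentage points), each point being 1 reported event. Events that passed the test are red where exclusion was higher in HOMO and blue where it was lower, and the red points outnumber the blue over the whole range of exclusion.

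Markers of astrocytes moved with genotype, and their part in the splicing changes was not tested. Junction counts of Slc4a4, Ndrg2 and Fgfr3, the astrocyte markers on the panel, summed to 14940 to 18556 counts per 1000000 of a mouse's total (CPM) in WT and 11007 to 13053 CPM in HOMO, without overlap. The summed junctions of Slc4a4, a bicarbonate cotransporter, fell by 0.45 on the log2 scale (adjusted p = 0.000681), those of Ndrg2 fell by 0.40 (adjusted p = 0.00883), and those of Fgfr3 differed by -0.47 (adjusted p = 0.0598). In bulk tissue, fewer cells of a type and less RNA per cell cannot be told apart. Summed over their genes, markers of oligodendrocytes (Mag, Mbp and Mobp) overlapped between groups, at 8835 to 11001 CPM in WT and 6714 to 11418 CPM in HOMO, and so did neuronal markers, at 30762 to 38794 CPM and 32112 to 36895 CPM. The neuronal sum rests mostly on Syt1, whose summed junctions changed by 0.01 (adjusted p = 0.955). Of the 6 neuronal marker events, 1 passed on summed junctions, a Grin1 event that fell by 0.37 (adjusted p = 0.00242). Lower sums were thus not confined to astrocyte markers.

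The event with the lowest adjusted p among those reported lay in Hnrpdl (current symbol Hnrnpdl), a gene of the heterogeneous nuclear ribonucleoprotein family, whose members bind nascent RNA and steer splice site choice. The exon measured is a coding exon of 171 bases at chr5:100036481-100036651 on the minus strand of GRCm38, and Ybx1, described after it, has a coding exon of 90 bases at chr4:119282781-119282870 on the minus strand. Both are shown because they had the lowest adjusted p of the named events with higher exclusion. Capitals mark the exon and lower case the 10 intron bases on each side.
Hnrpdl: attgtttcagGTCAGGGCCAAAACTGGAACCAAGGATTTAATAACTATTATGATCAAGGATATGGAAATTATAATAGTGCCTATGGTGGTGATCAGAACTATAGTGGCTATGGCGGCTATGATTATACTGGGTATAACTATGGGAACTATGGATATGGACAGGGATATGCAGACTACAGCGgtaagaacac
Ybx1: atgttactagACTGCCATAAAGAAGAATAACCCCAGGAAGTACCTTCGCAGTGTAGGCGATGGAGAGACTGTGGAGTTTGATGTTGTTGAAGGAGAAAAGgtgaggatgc

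Exclusion of the Hnrpdl exon was 4.91, 5.02 and 4.66% in the HOMO mice and 1.47, 1.56, 1.75, 1.38 and 1.22% in the WT mice. Even the lowest HOMO mouse lay far above the highest WT mouse. The means were 4.86% ± 0.184 (SD, n = 3) and 1.48% ± 0.2001 (SD, n = 5), with a log2 change 1.78 ± 0.12 (SE), adjusted p = 5.27e-14. The 95% Wilson interval of a single mouse was at most ± 0.442 points wide, which here and below covers counting error only, since PCR copies were counted without molecular identifiers. The CPM of the short junction rose, with a log2 change of 1.78 (adjusted p = 8.73e-09), while the long junction, which makes up most of the counts, had a change of 0.00 (adjusted p = 0.977). Skipping of the Hnrpdl exon thus rose while the kept form stayed near its WT level.

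Ybx1 encodes a cold-shock protein that binds DNA and RNA and takes part in splicing, translation and RNA stability. Its 90-base exon had exclusion of 20.5, 17.7 and 16.1% in HOMO and 10.01, 9.42, 9.94, 8.57 and 9.06% in WT, again without overlap. The means were 18.1% ± 2.25 and 9.401% ± 0.606 (log2 change 1.09 ± 0.11 (SE), adjusted p = 5.78e-09), and the widest Wilson interval was ± 1.16 points. The short junction rose, with a log2 change of 0.82 (adjusted p = 1.40e-05), and the long junction changed by -0.26 (adjusted p = 0.0666). Hnrpdl and Ybx1 were also the higher events that passed when a log2 change beyond 0.5 was required, a test that 3 events passed.

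Some events in other genes of splicing factors and RNA-binding proteins passed as well. Of 105 events in 80 such genes, Hnrpdl included, 14 passed, 12 with higher and 2 with lower exclusion, which is 13.3% against 7.07% of all events, and the median log2 change over the list was 0.10 against 0.07. Celf4, Sfrs8 (Sfswap) and Prpf3, which encode a neuronal splicing regulator, a splicing regulator of the SWAP family and a spliceosomal protein, changed at exons with most counts on the skipping junction, a share that also depends on the probes. Exclusion of the Celf4 exon was 96.6, 96.03 and 96.5% in HOMO and 94.3, 94.7, 94.6, 94.5 and 94.3% in WT (log2 change 0.64 ± 0.09 (SE), adjusted p = 2.69e-06). For Sfrs8 it was 81.4, 79.1 and 83.4% against 71.3, 75.1, 74.6, 72.8 and 68.1% (log2 change 0.73 ± 0.13 (SE), adjusted p = 2.98e-04). In both genes the long junction was lower in HOMO, by a log2 change of -0.45 (adjusted p = 0.00105) for Celf4 and -0.75 (adjusted p = 0.00391) for Sfrs8. The Prpf3 event rose from 92.2% ± 1.05 to 95.2% ± 0.715 (log2 change 0.74 ± 0.17 (SE), adjusted p = 0.00469), and none of these 3 events had an overlap between the groups.

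Rbfox2, a splicing regulator of neurons and muscle, gave 2 called events that share their short junction count and so are not independent. The first was 71.8, 68.0 and 82.2% in HOMO and 32.7, 63.3, 45.2, 37.1 and 54.2% in WT (log2 change 1.72 ± 0.41 (SE), adjusted p = 0.00592). These values rest on 35 to 71 counts per mouse, and the widest Wilson interval was ± 15.2 points, so the size of the change is poorly known. The Rbfox2 call was lost without HOMO replicate 3 (adjusted p = 0.0705). The second rose from 4.68% ± 1.22 to 8.08% ± 0.937 (log2 change 0.85 ± 0.27, adjusted p = 0.0462). The second Rbfox2 call was lost without WT replicate 6, 8 or 9 or HOMO replicate 1, 2 or 3 (adjusted p = 0.0712 to 0.215), with the number series as a term (log2 change 0.95, adjusted p = 0.115) and among mice numbered over 1000 (adjusted p = 0.0905). It was also lost with each mouse centred on its median event (log2 change 0.78, adjusted p = 0.0757) and with a pseudocount of 5 (adjusted p = 0.0511).

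The called events of ion channels and transmitter receptors had higher exclusion in HOMO, as did 79.2% of all called events. Of 53 events in 43 genes, 6 passed, all of them higher, which is 11.3% of the list against 7.07% of all events, and the median log2 change over the list was 0.14. The leading event was the 63-base exon of Grin1, which encodes the subunit present in every NMDA receptor, at chr2:25311343-25311405 on the minus strand. It is known as the N1 cassette of the extracellular amino-terminal domain and tunes how the receptor gates and responds to protons. The exon is shown in capitals between 10 intron bases on each side.
Grin1: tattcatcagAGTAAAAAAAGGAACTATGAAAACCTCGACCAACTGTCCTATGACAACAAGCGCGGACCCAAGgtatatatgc

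Exclusion of the Grin1 exon was 39.7, 45.3 and 44.1% in HOMO and 32.5, 30.5, 28.3, 24.9 and 32.4% in WT, so that all HOMO mice exceeded all WT mice. The means were 43.01% ± 2.97 and 29.7% ± 3.21 (log2 change 0.84 ± 0.10 (SE), adjusted p = 5.89e-08), on 12380 to 21363 counts per mouse and with Wilson intervals of at most ± 0.877 points. In contrast to Hnrpdl, the kept form was what moved. The long junction fell, with a log2 change of -0.67 (adjusted p = 2.20e-05), the short junction had one of 0.17 (adjusted p = 0.233), and the summed junctions one of -0.37 (adjusted p = 0.00242). A second Grin1 event on the panel did not pass (log2 change 0.28, adjusted p = 0.254).

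The other events of this list that the naming rule picked lay in Itpr1, Gria3 and Kcnt1. Itpr1, the calcium release channel of the endoplasmic reticulum, had a 45-base exon with exclusion of 6.64, 5.58 and 6.43% in HOMO and 3.19, 3.55, 4.43, 4.62 and 4.03% in WT (log2 change 0.69 ± 0.16 (SE), adjusted p = 0.00374). Gria3, an AMPA receptor subunit, rose from 91.6% ± 1.12 to 94.4% ± 0.191 at a 115-base exon (log2 change 0.60 ± 0.14 (SE), adjusted p = 0.00405). Kcnt1, a potassium channel opened by sodium, rose from 34.1% ± 1.71 to 42.1% ± 3.001 at a 42-base exon (log2 change 0.49 ± 0.12 (SE), adjusted p = 0.0074), with a log2 change of the long junction of -0.62 (adjusted p = 3.56e-04). The groups did not overlap in any of them. The Itpr1 call was lost with the number series as a term (log2 change 0.55, adjusted p = 0.102). The Gria3 call was lost with the number series as a term (log2 change 0.37, adjusted p = 0.224) and among mice numbered over 1000 (adjusted p = 0.233). The Kcnt1 call was lost without HOMO replicate 2 (adjusted p = 0.0719) and with the number series as a term (log2 change 0.45, adjusted p = 0.0716). Gria2, chosen after its values were seen because it has an exon of the same length as Gria3, had a mean of 94.1% in HOMO and 92.2% in WT (log2 change 0.44, adjusted p = 0.026) and passed, but its groups overlapped, and in Q150 HOMO its log2 change was -0.24 (adjusted p = 0.197, interaction adjusted p = 0.0455).

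Among the called events of synaptic adhesion genes, 2 were exons kept more often in HOMO. Of 85 events in 51 genes of cell adhesion, guidance and synaptic scaffold, 3 passed (3.53% against 7.07% of all events), and the median log2 change was 0.00 against 0.07 over all events. Of these 3, 2 were the 90-base exons of Nrxn2 and Nrxn3 that encode the insert at splice site SS4, the site that selects among postsynaptic partners of neurexins. The Nrxn3 exon lies at chr12:90199147-90199236 on the plus strand and is shown as an example of the insert, in capitals between 10 intron bases on each side.
Nrxn3: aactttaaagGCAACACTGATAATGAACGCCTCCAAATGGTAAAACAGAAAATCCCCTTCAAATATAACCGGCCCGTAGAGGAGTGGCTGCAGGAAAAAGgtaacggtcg

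Exclusion of the Nrxn2 exon was 25.9, 28.6 and 23.3% in HOMO and 33.9, 31.04, 32.2, 34.4 and 31.8% in WT, without overlap. The means were 25.9% ± 2.63 and 32.7% ± 1.42 (log2 change -0.47 ± 0.11 (SE), adjusted p = 0.0063). The Nrxn2 call was lost without HOMO replicate 3 (adjusted p = 0.0843). The short junction had a log2 change of -0.23 (adjusted p = 0.156) and the long junction one of 0.25 (adjusted p = 0.125), so neither passed alone and only their ratio did. Nrxn3, named after its values were seen, went from 18.2% ± 4.04 in WT to 12.7% ± 1.63 in HOMO (log2 change -0.60 ± 0.16, adjusted p = 0.0168), with an overlap between the groups. The third event of this list went the other way. It lay in mKIAA1232 (Dlg3), a scaffold of postsynaptic glutamate receptors, whose 54-base exon had exclusion of 76.3, 76.5 and 82.5% in HOMO and 65.3, 64.2, 70.6, 71.7 and 70.5% in WT (log2 change 0.75 ± 0.13 (SE), adjusted p = 1.03e-04).

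**Figure D2:**
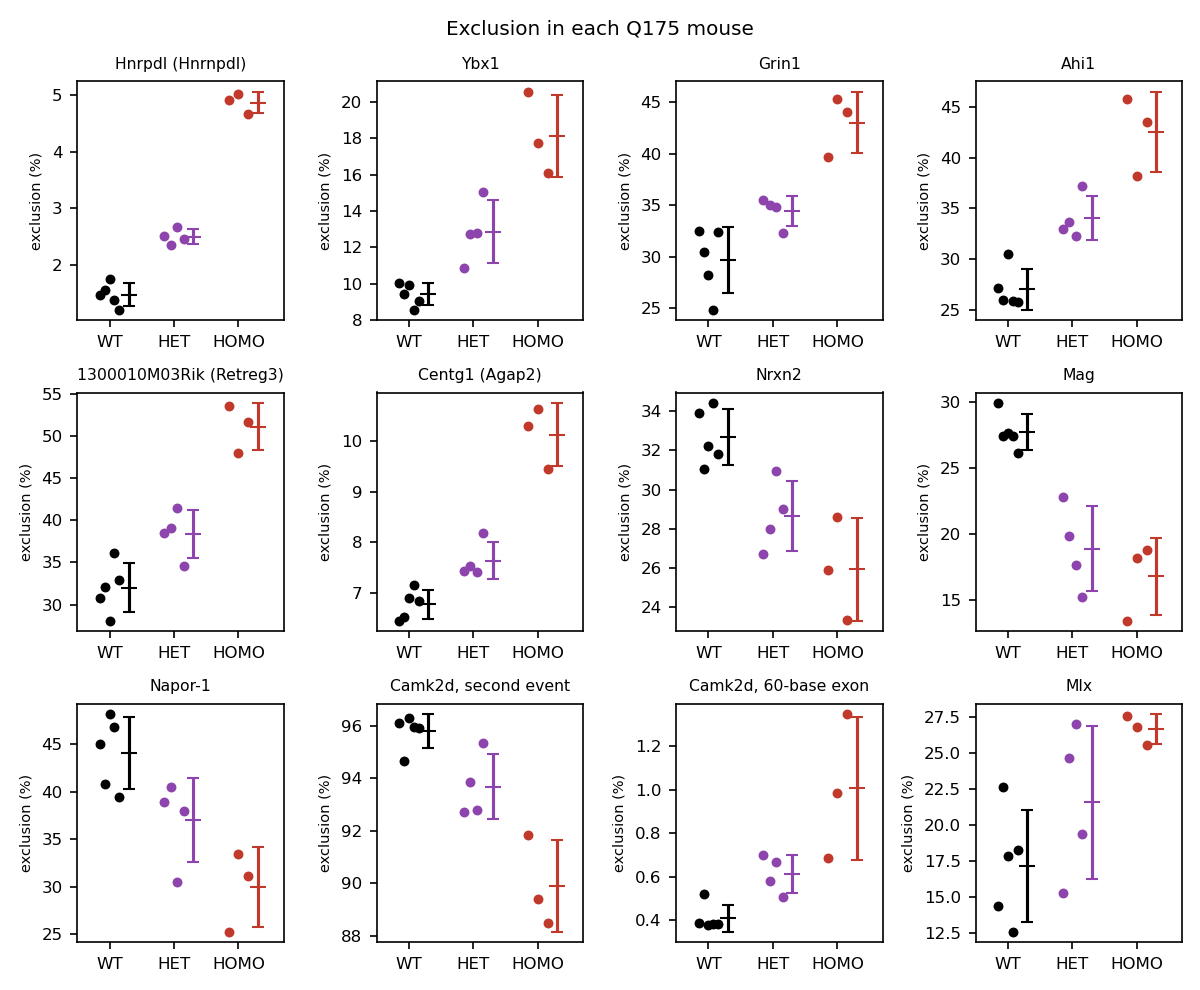
Exclusion (y axis, %) of 12 events in each Q175-set mouse, by genotype, with the mean and SD beside the points (5 WT, 4 HET and 3 HOMO mice). No HOMO mouse overlaps the WT mice in any panel, and the y axes differ between panels and do not start at 0.

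Among kinase and phosphatase genes, called events lay in Camk2d and Wnk2. Of 116 events in 91 genes of kinases and phosphatases, 6 passed (5.17% against 7.07% of all events), 3 higher and 3 lower, with a median log2 change of 0.08 over the list. Besides Wnk2, the list's calls include Erbb2ip and Fgfr1op (Cep43), a scaffold and a centrosomal protein whose symbols matched the list and which are not kinases. Of the 6 events, 3 lay in Camk2d, the delta subunit of the calcium and calmodulin dependent kinase, a gene with a variable linker made of short exons. The 3 events share 1 junction count, which is the short count of the first event and the long count of the other two, so they report 1 shift and not 3. The 60-base exon of the first event lies at chr3:126805857-126805916 on the plus strand and is shown in capitals between 10 intron bases.
Camk2d: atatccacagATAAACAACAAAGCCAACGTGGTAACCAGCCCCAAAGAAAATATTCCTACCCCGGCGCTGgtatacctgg

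Exclusion of this Camk2d exon was 0.688, 0.985 and 1.35% in HOMO and 0.389, 0.521, 0.379, 0.3802 and 0.3805% in WT, and no HOMO mouse came down to the WT range (log2 change 1.25 ± 0.23 (SE), adjusted p = 3.73e-04). In the event with the shared count as its long count, exclusion was 91.8, 89.4 and 88.5% in HOMO and 96.1, 94.7, 96.3, 95.96 and 95.9% in WT (log2 change -1.33 ± 0.23 (SE), adjusted p = 1.52e-04). In the third, a pair of mutually exclusive exons, it was 80.8, 64.9 and 68.05% against 84.8, 84.2, 87.2, 86.7 and 87.2% (log2 change -1.26 ± 0.26 (SE), adjusted p = 0.00107). The shared junction rose with a log2 change of 1.45 (adjusted p = 3.77e-04), while the junctions that are not shared had log2 changes of 0.20 (adjusted p = 0.0583), 0.12 (adjusted p = 0.501) and 0.19 (adjusted p = 0.492). The change in this gene thus lay in 1 minor junction.

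Wnk2, a kinase that regulates ion cotransporters, had the largest change in points among the reported events, with exclusion of 19.4, 35.0 and 40.7% in HOMO and 51.1, 55.1, 69.4, 70.0 and 58.1% in WT (log2 change -1.74 ± 0.51 (SE), adjusted p = 0.0271). The event had only 20 to 49 counts per mouse, and a single value was uncertain by up to ± 19.3 points. The Wnk2 call was lost without WT replicate 8 or 9 or HOMO replicate 1 or 2 (adjusted p = 0.0578 to 0.233) and with the number series as a term (log2 change -1.94, adjusted p = 0.0699). Ptk2b, a calcium-responsive tyrosine kinase of neurons whose symbol is not on the list, fell from 25.8% ± 4.67 to 13.8% ± 1.47 (log2 change -1.09 ± 0.31 (SE), adjusted p = 0.0247). The Ptk2b call was lost without WT replicate 7 or 8 or HOMO replicate 1, 2 or 3 (adjusted p = 0.0605 to 0.128), with the number series as a term (log2 change -0.82, adjusted p = 0.269) and among mice numbered over 1000 (adjusted p = 0.291). Erbb2ip (Erbin), a scaffold of receptor tyrosine kinases, rose from 16.2% ± 1.13 to 22.7% ± 4.18 (log2 change 0.59 ± 0.12 (SE), adjusted p = 8.26e-04), and HOMO replicate 1, at 17.9%, lay just above the highest WT mouse at 17.6%.

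Genes of endocytosis and vesicle traffic were called at about the rate of all events, with 5 of 69 (7.25% against 7.07%, 4 higher and 1 lower, median log2 change 0.05). Sort1 encodes sortilin, a sorting receptor that carries neurotrophins and progranulin between membranes. Its 99-base exon lies at chr3:108355472-108355570 on the plus strand and is shown, in capitals between 10 intron bases, because it was well counted, with 10888 to 17289 counts per mouse.
Sort1: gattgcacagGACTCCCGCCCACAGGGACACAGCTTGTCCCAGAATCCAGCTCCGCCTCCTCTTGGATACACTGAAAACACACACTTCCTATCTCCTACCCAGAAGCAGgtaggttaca

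Exclusion of the Sort1 exon was 95.4, 95.2 and 95.5% in HOMO and 93.1, 93.5, 92.6, 93.8 and 93.3% in WT, in 2 separate and narrow ranges (log2 change 0.57 ± 0.10 (SE), adjusted p = 1.06e-04). The kept junction fell with a log2 change of -0.61 (adjusted p = 8.37e-05), and the short junction, which carries most counts, had one of -0.04 (adjusted p = 0.759). Synj2, an inositol phosphatase of endocytosis, rose from 82.9% ± 0.877 to 87.5% ± 1.68 (log2 change 0.54 ± 0.14, adjusted p = 0.0101). Arfgap1, which acts on the coat proteins of the Golgi, went from 1.44% ± 0.1399 to 0.973% ± 0.157 (log2 change -0.58 ± 0.16, adjusted p = 0.0166). The Synj2 call was lost without HOMO replicate 3 (adjusted p = 0.109). The Arfgap1 call was lost without WT replicate 9 or HOMO replicate 2 or 3 (adjusted p = 0.059 to 0.127).

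Most called events of cytoskeletal and motor genes had higher exclusion, as did 79.2% of all called events. Of 121 events in 78 genes, 15 passed (12.4% against 7.07% of all events), 14 higher and 1 lower, and the median log2 change over the list was 0.06, close to that of all events. Klc1 encodes a kinesin light chain that links the motor to its cargo, and its alternative 5' splice site event gave 48.1, 51.3 and 50.2% in HOMO and 38.4, 37.96, 40.1, 42.6 and 46.04% in WT (log2 change 0.52 ± 0.09 (SE), adjusted p = 1.29e-04). Fmnl1, a formin that elongates actin filaments, gave 30.9, 38.02 and 36.7% and 24.8, 26.3, 27.6, 28.7 and 26.9% at a 99-base exon (log2 change 0.56 ± 0.11 (SE), adjusted p = 0.00103). Sorbs2, an adaptor between actin and membrane signalling, had 3 called events, 2 of which share their long count. The one the rule picked rose from 17.6% ± 1.35 to 24.8% ± 4.23 (log2 change 0.62 ± 0.15 (SE), adjusted p = 0.00702). The Klc1 call was lost with the number series as a term (log2 change 0.32, adjusted p = 0.0563). The Sorbs2 call was lost without HOMO replicate 1 (adjusted p = 0.107). Mtap7d2 (Map7d2), a microtubule-associated protein that recruits kinesin, was 3.53, 2.78 and 3.19% in HOMO and 2.14, 2.34, 2.13, 2.21 and 1.84% in WT at a 99-base exon (log2 change 0.58 ± 0.15 (SE), adjusted p = 0.0102). The Mtap7d2 call was lost without HOMO replicate 1 or 3 (adjusted p = 0.0515 to 0.0972).

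Regulators of small GTPases moved both ways, with 6 of 76 events called (7.89% against 7.07% of all events, 3 higher and 3 lower) and a median log2 change of 0.00. Centg1 (Agap2), a GTPase-activating protein with its own GTPase domain that enhances PI3-kinase signalling, gave 10.3, 10.6 and 9.44% in HOMO and 6.46, 6.53, 6.899, 7.16 and 6.84% in WT at a 60-base exon (log2 change 0.63 ± 0.09 (SE), adjusted p = 2.14e-06). Arhgef12, a guanine nucleotide exchange factor, rose from 87.8% ± 1.34 to 92.03% ± 1.07 (log2 change 0.69 ± 0.18, adjusted p = 0.0119). Rhot1, the mitochondrial GTPase that couples mitochondria to motors, had exclusion over 99% in every mouse, at 99.7 to 99.8% in HOMO and 99.3 to 99.6% in WT (log2 change 1.33 ± 0.40, adjusted p = 0.03), so its log2 change describes a difference of a fraction of a point. In the other direction, AU040829 (Arhgap44), a synaptic GTPase-activating protein, gave 66.98, 76.8 and 75.01% in HOMO and 81.9, 81.3, 80.2, 81.4 and 79.2% in WT (log2 change -0.63 ± 0.12 (SE), adjusted p = 3.70e-04). Without HOMO replicate 1 the AU040829 change was -0.42 (adjusted p = 0.0309), and the call was lost with all 10 knock-in WT mice (log2 change -0.36, adjusted p = 0.212) and without the variance trend (adjusted p = 0.0544). Tbc1d4, a Rab GTPase-activating protein, gave 56.9, 56.98 and 47.8% and 59.9, 63.5, 72.5, 71.5 and 67.2% (log2 change -0.80 ± 0.22 (SE), adjusted p = 0.0182). The Arhgef12 call was lost without HOMO replicate 3 (adjusted p = 0.0993), with the number series as a term (log2 change 0.65, adjusted p = 0.0963) and among mice numbered over 1000 (adjusted p = 0.0853). The Rhot1 call was lost without WT replicate 6, 8, 9 or 10 or HOMO replicate 1 or 3 (adjusted p = 0.0545 to 0.165) and with the number series as a term (log2 change 1.46, adjusted p = 0.0883). The Tbc1d4 call was lost without WT replicate 8 or 9 or HOMO replicate 3 (adjusted p = 0.0609 to 0.156).

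Transcription and chromatin genes had 5 of 162 events called (3.09% against 7.07% of all events), all of them higher as were 79.2% of all calls, and a median log2 change of 0.05. Smarca4, the ATPase of the SWI/SNF chromatin remodelling complex, rose from 84.4% ± 0.893 to 88.8% ± 1.15 (log2 change 0.55 ± 0.12 (SE), adjusted p = 0.00246). Chd5, a neuronal chromatin remodeller, rose from 61.1% ± 2.67 to 68.2% ± 2.56 (log2 change 0.46 ± 0.11, adjusted p = 0.00788), and Jarid1c (Kdm5c), a histone demethylase on the X chromosome, from 16.4% ± 1.77 to 22.8% ± 0.5497 (log2 change 0.60 ± 0.15, adjusted p = 0.00895). The Chd5 call was lost without HOMO replicate 2 (adjusted p = 0.0943). The Jarid1c call was lost with the number series as a term (log2 change 0.50, adjusted p = 0.129) and among mice numbered over 1000 (adjusted p = 0.0718). Mlx, the dimer partner of glucose-sensing transcription factors, had exclusion of 27.6, 26.8 and 25.6% in HOMO and 14.3, 22.6, 17.8, 12.6 and 18.3% in WT at a 90-base exon (log2 change 0.84 ± 0.24 (SE), adjusted p = 0.0252). The HOMO mice lay close together and above all WT mice, but a single mouse was uncertain by up to ± 5.51 points at 243 to 334 counts. The Mlx call was lost without WT replicate 6 or 9 or HOMO replicate 1, 2 or 3 (adjusted p = 0.0578 to 0.103).

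Among ubiquitin, chaperone and autophagy genes 4 of 81 events passed (4.94% against 7.07% of all events, 3 higher and 1 lower), and the median log2 change of the list was -0.07. Rnf112, a brain RING finger protein, gave 23.1, 24.002 and 24.9% in HOMO and 18.1, 17.1, 16.8, 13.1 and 13.1% in WT at a 69-base exon (log2 change 0.78 ± 0.13 (SE), adjusted p = 5.06e-05). The Rnf112 call was lost with all 10 knock-in WT mice (log2 change 0.51, adjusted p = 0.0712). Dnajc8, a J-domain protein of the spliceosome, rose from 3.49% ± 0.466 to 4.85% ± 0.382 (log2 change 0.50 ± 0.13, adjusted p = 0.00895), and Trim33, a ubiquitin ligase of TGF-beta signalling, from 13.2% ± 0.771 to 17.7% ± 2.35 (log2 change 0.49 ± 0.12, adjusted p = 0.0101). The Dnajc8 call was lost without HOMO replicate 3 (adjusted p = 0.0778). The Trim33 call was lost without HOMO replicate 1 or 3 (adjusted p = 0.0724 to 0.102).

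**Figure D3:**
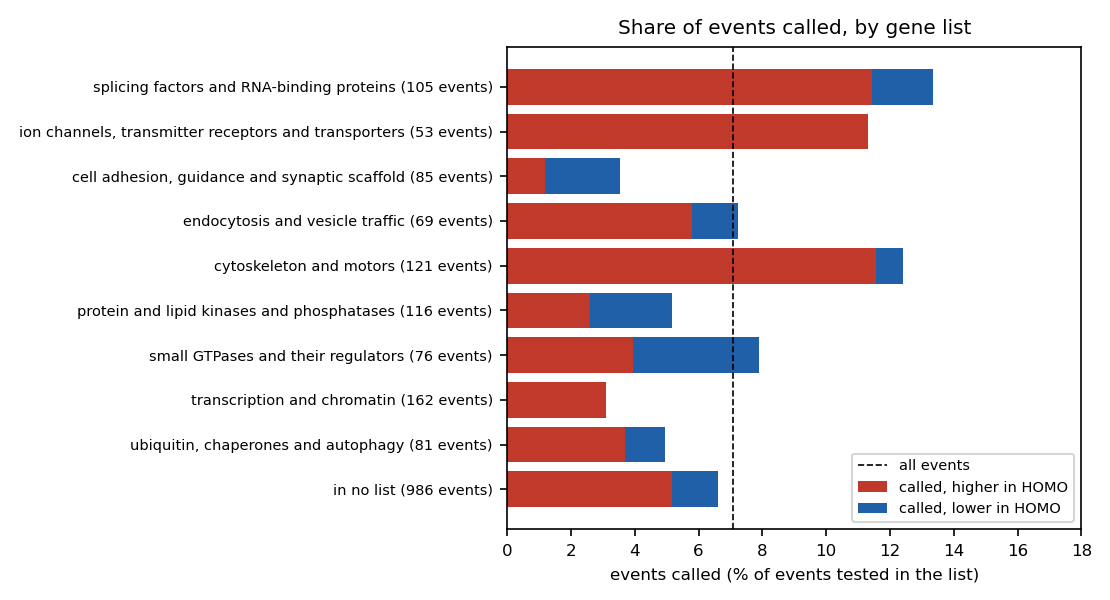
Share of the events tested that passed in each list of genes (x axis, %), split into higher (red) and lower (blue) exclusion in HOMO, for lists of at least 50 events. The dashed line marks the 7.07% of all events, and the lists of RNA-binding proteins, ion channels, cytoskeleton, small GTPases (7.89%) and endocytosis (7.25%) extend past it.

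Mag, a myelin glycoprotein that faces the axon, was the clearest event toward exon keeping among those reported. Exclusion of its 45-base exon, whose inclusion gives the form with the shorter cytoplasmic tail, was 13.5, 18.2 and 18.8% in HOMO and 29.9, 27.4, 27.6, 27.4 and 26.1% in WT, with a gap of over 7 points between the groups. The means were 16.8% ± 2.92 and 27.7% ± 1.35 (log2 change -0.93 ± 0.12 (SE), adjusted p = 1.19e-06). The short junction fell with a log2 change of -0.76 (adjusted p = 6.05e-04), the long junction had one of 0.17 (adjusted p = 0.351), and the summed junctions one of -0.03 (adjusted p = 0.89), so the total counted for Mag stayed near the WT level. Of the 2 other myelin events on the panel, those of Mbp and Mobp, neither passed (adjusted p = 0.528 and 0.957). Mobp and Mbp summed junctions had log2 changes of -0.38 (adjusted p = 0.106) and -0.29 (adjusted p = 0.149).

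Ahi1, whose product binds huntingtin-associated protein and serves cilia and membrane traffic, had exclusion of 45.8, 38.2 and 43.6% in HOMO and 27.2, 25.97, 30.5, 25.9 and 25.8% in WT at an exon of 256 bases. All HOMO mice were above all WT mice (log2 change 1.00 ± 0.12 (SE), adjusted p = 2.90e-07). Both junctions moved, the short one with a log2 change of 0.56 (adjusted p = 0.00642) and the long one with -0.44 (adjusted p = 0.0237), and such opposite moves of both junctions were called in 5 of the 130 called events. Of the 9 events in 8 study and huntingtin-related genes, 5 passed, but some of these genes were picked by the study, so their count is not independent evidence.

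The remaining events with the largest higher exclusion came from genes outside these lists. 1300010M03Rik (Retreg3), a receptor for autophagy of the endoplasmic reticulum, gave 53.5, 48.03 and 51.7% in HOMO and 30.8, 32.1, 28.1, 36.1 and 32.97% in WT (log2 change 1.14 ± 0.23 (SE), adjusted p = 0.00107). Pcsk7, a proprotein convertase, gave 72.04, 62.9 and 68.6% and 51.7, 56.03, 52.5, 55.8 and 46.96% (log2 change 0.93 ± 0.20 (SE), adjusted p = 0.00227). Urgcp had a smaller share, with 3.18, 2.87 and 3.49% in HOMO and 1.45, 1.78, 1.67, 1.83 and 1.71% in WT (log2 change 0.93 ± 0.18 (SE), adjusted p = 4.10e-04). In these 3 genes the groups did not overlap and the call was kept in each fit that left out 1 mouse. Commd8, of a family that acts in endosomal recycling, rose from 95.5% ± 0.355 to 97.5% ± 0.186 (log2 change 0.86 ± 0.18, adjusted p = 0.00183). Letmd1, a mitochondrial protein, rose from 2.14% ± 0.613 to 4.22% ± 0.456 (log2 change 1.05 ± 0.25, adjusted p = 0.0074), Fbf1, a protein of the ciliary base, from 95.5% ± 0.729 to 97.6% ± 0.7502 (log2 change 0.97 ± 0.22, adjusted p = 0.0038), and D230025D16Rik from 9.14% ± 2.65 to 16.9% ± 3.83 (log2 change 1.03 ± 0.29, adjusted p = 0.0235). The Letmd1 call was lost without HOMO replicate 1 (adjusted p = 0.0566). The Fbf1 call was lost without HOMO replicate 2 (adjusted p = 0.0738), with the number series as a term (log2 change 0.84, adjusted p = 0.0691) and among mice numbered over 1000 (adjusted p = 0.0781). The D230025D16Rik call was lost without WT replicate 8 or 9 or HOMO replicate 1 or 3 (adjusted p = 0.0595 to 0.171) and with the number series as a term (log2 change 1.17, adjusted p = 0.0563).

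Of the 14 lower events outside the lists, the naming rule picked those of Napor-1, Pisd and Cbfa2t3h (Cbfa2t3), besides that of Ptk2b. Napor-1, a symbol with no match in the reference tables and so matched to no list, gave 25.3, 33.5 and 31.2% in HOMO and 45.01, 40.9, 48.1, 46.8 and 39.4% in WT (log2 change -0.88 ± 0.16 (SE), adjusted p = 2.76e-04). Pisd, which makes phosphatidylethanolamine in mitochondria, gave 6.17, 7.88 and 9.38% and 13.8, 10.6, 15.4, 19.6 and 15.1% (log2 change -1.02 ± 0.28 (SE), adjusted p = 0.0156), and Cbfa2t3h, a transcriptional corepressor, gave 6.103, 9.23 and 10.6% and 12.2, 11.2, 11.8, 18.3 and 13.9% (log2 change -0.73 ± 0.17 (SE), adjusted p = 0.0038). No HOMO mouse reached the WT range in any of the 3. The Pisd call was lost without WT replicate 9 or HOMO replicate 1 or 2 (adjusted p = 0.0525 to 0.124). The Cbfa2t3h call was lost without HOMO replicate 1 (log2 change -0.48, adjusted p = 0.117).

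A ratio can rise because the skipping form is made more or because the keeping form is made less, and the CPM of each junction was tested to tell these apart. Of the 103 events with higher exclusion, 42 had only the short junction called higher, 30 had only the long junction called lower, 4 had both of these, 2 had both junctions called lower, and 25 had neither called. Of the 27 with lower exclusion, 9 had only the short junction lower, 8 only the long junction higher, 1 both of these, 2 both junctions lower and 7 neither. Summed junctions, a rough measure of the gene's level at that site, passed for 27 of the 103 and 6 of the 27, of which 11 and 3 were higher. Over all 1839 events, the short junction passed in 168 (9.14%), the long junction in 169 (9.19%) and the sum in 236 (12.8%). The log2 changes of the 103 had a median of 0.33 for the short and -0.21 for the long junction. With each mouse centred on its median event, the short junction passed as higher in 61 and as lower in 68 events, in place of 125 and 43, the long junction in 80 and 98, in place of 75 and 94, and the sum in 93 and 133, in place of 129 and 107, so the directions of junction calls depend on the scaling. Events such as Hnrpdl, where only skipping rose, and Grin1, where keeping fell, therefore stood at 2 ends of a range.

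**Figure D4:**
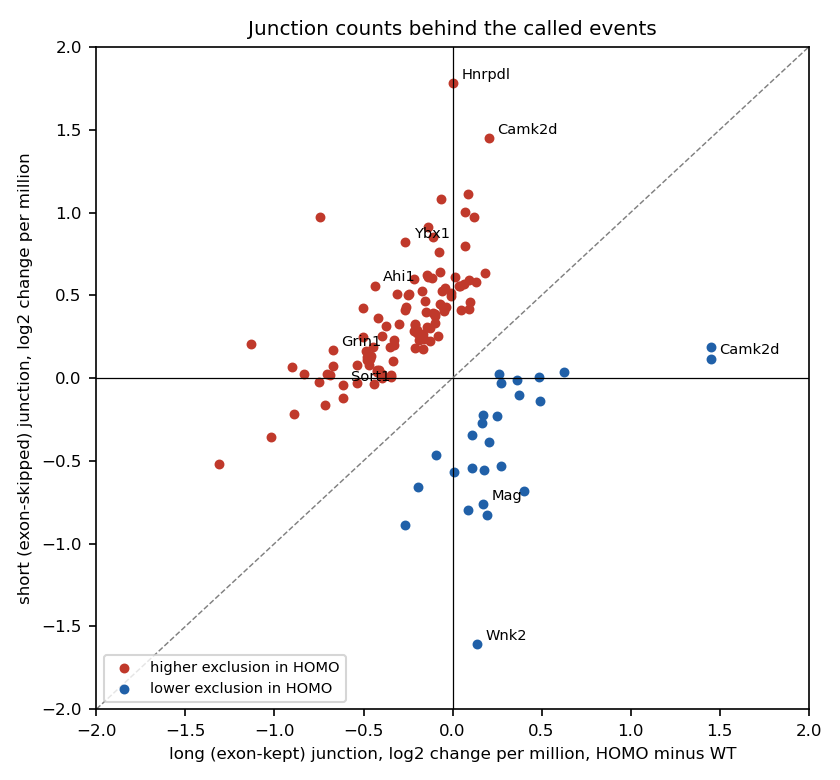
Log2 change in CPM of the long junction (x axis) and the short junction (y axis), HOMO minus WT, for each reported called event. The dashed line marks equal change of both junctions, and Hnrpdl lies on the vertical axis while Grin1 and Sort1 lie near the horizontal one.

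Genotype and the series of mouse numbers overlap in part, and fewer events passed when the series was taken into account. Of the 50 named events, 44 passed against only the WT mice numbered over 1000 and 38 with the series as a term. Both fits give the same log2 changes, those of the HOMO mice against these WT mice, since all HOMO mice are numbered over 1000. They differ in the estimate of spread and are not separate checks. HOMO and WT do not overlap in any of the named events, which the naming rule required for all but those of Mag, Mlx and Mtap7d2, so their direction could not turn in such a subset. The Gria3 and Klc1 changes were smaller by over 1.5 times with the series as a term. With centring as well, 51 events passed (28 higher, 23 lower). All 10 knock-in WT mice include those of the Q150 set, which differ in age, strain and file set, so a fit with them mixes these with the number of controls. Against all 10 knock-in WT mice, the calls of Mlx, Rhot1, D230025D16Rik, Ptk2b, Pisd, Tbc1d4, Cbfa2t3h, Kcnt1, Arfgap1, Sorbs2, AU040829, Arhgef12, Chd5 and Rnf112 and the second of Rbfox2 were lost (adjusted p = 0.0634 to 0.732). Of these, 9 had changes smaller by over 1.5 times in that fit, with log2 changes of 0.13 for Chd5, -0.35 for Tbc1d4, -0.27 for Arfgap1, -0.56 for Ptk2b, 0.49 for the second of Rbfox2, -0.42 for Cbfa2t3h, 0.30 for Kcnt1, -0.36 for AU040829 and 0.51 for Rnf112. Between the 2 WT mice numbered over 1000 and the 3 under it, limma's test called 0 of 1839 events, and 96 had an unadjusted p under 0.05. For Hnrpdl the log2 change against the 2 WT mice numbered over 1000 was 1.95 (adjusted p = 2.28e-17), for Grin1 0.92 (adjusted p = 4.76e-09), for Ybx1 1.19 (adjusted p = 2.09e-10) and for Mag -0.87 (adjusted p = 1.94e-06).

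**Figure D5:**
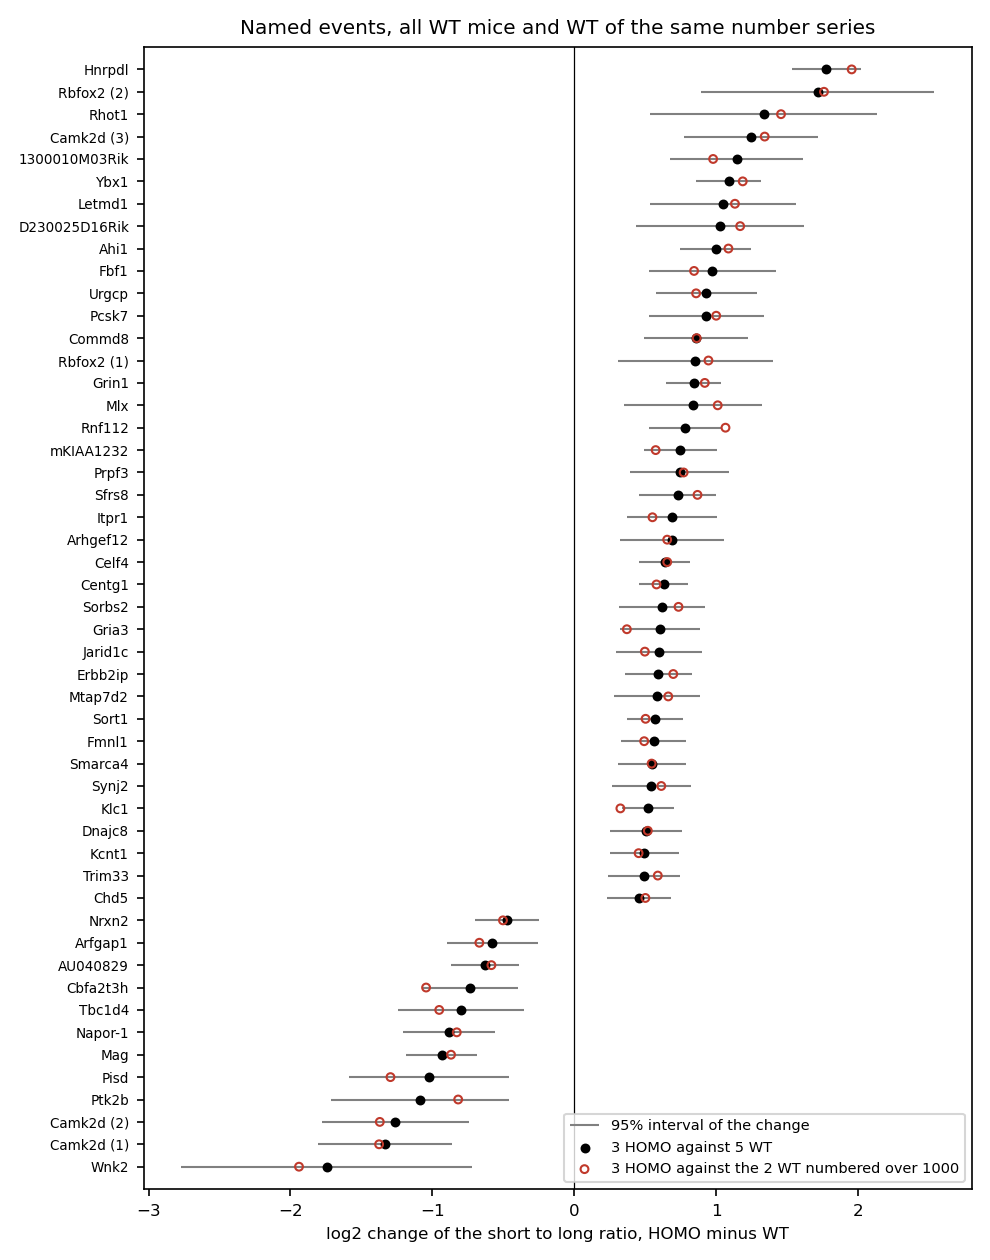
Log2 change of the ratio of short to long counts, HOMO minus WT (x axis), for the 50 named events, with all 5 WT mice (filled points, 95% interval as a line) and with the 2 WT mice numbered over 1000 (open circles). The circles reuse the HOMO mice and 2 of the 5 WT mice of their points, so they are not independent of them, and numbers in parentheses tell apart events of 1 gene.

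Heterozygotes, which share the WT mice with this comparison, had values between WT and HOMO for several of the leading events. All 4 HET mice are numbered under 1000 and all HOMO mice over it, so a direct comparison of HET with HOMO also spans the series. Only WT mice lie in both series. Their log2 difference by limma, over 1000 minus under, was -0.30 for Hnrpdl, -0.17 for Ybx1, -0.13 for Grin1 and -0.11 for Mag (adjusted p = 0.834 to 0.984). A difference of HET and HOMO with the series as a term was not tested. HET exclusion of the Hnrpdl exon was 2.51, 2.36, 2.68 and 2.45%, with a log2 change against WT of 0.78 (adjusted p = 3.82e-05). That of the Ybx1 exon was 10.8, 12.8, 12.8 and 15.1%, with 0.50 (adjusted p = 0.00674). For Grin1 it was 35.5, 35.02, 34.8 and 32.3%, with 0.32 (adjusted p = 0.0816), and for Mag 22.8, 19.9, 17.7 and 15.3%, with -0.73 (adjusted p = 1.23e-04). Mag was the one of these 4 in which the HET mice spread into the HOMO range. Over all events, 11 passed in HET against WT (0.598%).

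The Q150 knock-in line, with 4 HOMO and 5 WT mice of its own, lists 1731 of the events, and its WT mice are not those used here. Of the 103 events higher in Q175 HOMO, 97 had a positive log2 change in Q150 HOMO and 72 passed there in that direction, while 67.2% of all events were positive and 20% passed as higher. Of the 26 lower events listed in both sets, 18 were negative and 9 passed in that direction, against 32.8% and 4.16% of all events. The 2 lines differ in strain, huntingtin allele, mouse age and file set as well as in repeat length, which cannot be told apart. The change differed between the lines, by the interaction in limma, for 59 events (3.41%), of which 13 had more and 46 less exclusion in Q175 HOMO, and 13 of the 59 were called in Q175 HOMO. With each mouse centred on its median event 41 differed (20 more, 21 less), and without HOMO replicate 1 the count fell to 12, without HOMO replicate 2 to 23 and without WT replicate 6 or 9 to 27 or 28. Hnrpdl had a log2 change of 2.50 (adjusted p = 2.22e-10) in Q150 HOMO and Ybx1 one of 0.72 (adjusted p = 4.23e-05), and the change differed between the lines for Hnrpdl (interaction adjusted p = 0.0399) but not past the threshold for Ybx1 (interaction 0.37, adjusted p = 0.191).

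Averaged over all events, exclusion per mouse was 45.6, 45.4 and 45.8% in HOMO and 44.8, 44.8, 45.4, 44.9 and 44.8% in WT. The difference of 0.64 points did not pass a two-sided exact permutation test (p = 0.0714, where 0.0357 is the smallest that 3 against 5 mice allow), since WT replicate 8 lay above HOMO replicate 2. Events of intermediate use, with mean exclusion of 20 to 80% over all 12 mice of the set, differed by 1.06 points (exact p = 0.0357, 0.107 after Benjamini-Hochberg adjustment over 3 classes). Those under 20% differed by 0.39 points (exact p = 0.0714) and those over 80% by 0.25 points (exact p = 0.179). Calls were spread over these classes, at 7.26% of 620 events under 20%, 7.92% of 783 from 20 to 80% and 5.28% of 436 over 80%. Calls were more frequent at higher depth, with 1.74% called of the 460 events with the fewest counts and 13.04% of the 460 with the most, between which the median standard error fell from 0.34 to 0.13 on the log2 scale.

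Of the 130 called events, 124 were cassette exons, 2 alternative 3' splice sites, 2 alternative 5' splice sites and 2 pairs of mutually exclusive exons. The exon of a called cassette event could be found on GRCm38 in 108 cases, 88 higher and 20 lower. The higher exons had a median length of 99 bases and the lower ones of 74.5, against 90 for all 1454 matched exons. A length that is a multiple of 3, which leaves the reading frame intact, was found in 69.3% of the higher and 70.0% of the lower exons, against 65.8% of all matched exons. Coding sequence alone made up 78.4%, 70.0% and 75.7% of them. In the 100 intron bases on each side, read on the gene's strand, the motif TGTGT occurred beside 38.6% of the higher, 55.0% of the lower and 41.4% of all matched exons, and TGACT beside 26.1%, 40.0% and 25.1%. These shares are descriptions, and the 20 lower exons are too few to fix them.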

How the data were processed

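The authors prepared 1 RASL-seq library per mouse from cortical RNA, with probe pairs for known splice junctions and PCR without molecular identifiers. Per the file headers, the deposited columns hold each event's short and long junction counts, as whole numbers without normalization and with commas in large values. Because of the commas the unit was entered as other, not as counts, and limma on log ratios was the main test. The aligner is not given in the sources used here. The labels name mm10, but only 13.9% of the 1790 events with a reference gene lie inside their gene on GRCm38 at the positions in the files, so those positions were not used. Exons were instead found by gene and by the length of the skipping intron in GENCODE M21 on GRCm38 (1454 cassette events with 1 exon, 98.8% of them between AG and GT).

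Groups came from the genotype label. The glutamine numbers decided the line. WT mice belong to the Q175 set where their files list its events. Per event and mouse, log2((short + 0.5)/(long + 0.5)) was fitted by limma (3.58.1, R 4.3.3) with a mean per genotype over the 12 mice of the set and a variance trend on the counts. Events needed a mean short plus long count of at least 10, which removed none. An adjusted p under 0.05 (Benjamini-Hochberg over all 1839 events) was called. Junctions were fitted as log2((count + 0.5) per 1000000 of the mouse's total). The files do not say more of the 8 animals, so p-values measure the spread between these mice. Mean exclusion was compared by exact permutation (scipy 1.17.1). Intervals of shares are 95% Wilson intervals. Tests were tried on simulated data. Positions on the plus and minus strand are 1-based.

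Named events were those of Mag, Mlx, Mtap7d2, Mettl3, Tardbp and Htt (only the first 3 are listed), the 15 largest higher and 10 largest lower changes among called events without overlap, and up to 3 more of lowest adjusted p from each gene list. Of these, 1 is not reported here. The comparison, gene lists and rule were chosen with earlier results of these data known. Older symbols were matched through RefSeq synonyms. Alternatives were other WT sets, the number series, centring, variance, model, filter and pseudocount choices, and leaving out each mouse. Figures were drawn with matplotlib 3.10.9.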

Additional observations from a re-analysis of the deposited data

Results flagged for a closer look

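In Hnrpdl the change in Q175 HOMO was smaller than in Q150 HOMO, with a log2 difference by limma's interaction of -0.72 (adjusted p = 0.0399). Ptk2b differed by -2.04 (adjusted p = 0.0175), Tbc1d4 by -1.28 (adjusted p = 0.0402) and Dnajc8 by -0.89 (adjusted p = 0.0162). Ptk2b and Tbc1d4 had lower exclusion in Q175 HOMO and log2 changes of 0.96 (adjusted p = 0.0612) and 0.48 (adjusted p = 0.212) in Q150 HOMO, where neither passed.

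Single WT mice stood apart from the other 4 in both Camk2d cassette events. WT replicate 7 had exclusion of 0.521% in the first and 94.7% in the second, values that share 1 junction count. The mean exclusion over all events of WT replicate 8, 45.4%, also stood apart. Chance marks about 1 in 20 groups of this kind, and 50 named events were examined.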

How the results depend on the processing

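No named event changed direction, but HOMO and WT do not overlap in any of them, so leaving out mice could not turn them. Of the 50, 50 passed with only the 8 mice, 50 with a quasi-binomial model, 49 with centring, 44 among mice numbered over 1000, 38 with the series as a term, 34 of 49 with all 10 knock-in WT mice, 24 without the variance trend and 2 with a minimum log2 change of 0.5, while 28 passed in each of the 8 fits that left out 1 mouse. The calls over all events numbered 130 (103 higher, 27 lower) and moved to 82 (64 higher) with the series as a term, to 39 (30 higher, 9 lower) without the variance trend, to 3 (2 higher, 1 lower) with a minimum change of 0.5, to 83 (14 lower) with all 10 WT mice and to 50 lower with centring. Centring together with the series, chosen after the data were seen, gave 51 (28 higher). Leaving out 1 mouse gave 74 to 125 calls, 57 to 97 higher and 11 to 28 lower. With the series as a term the short junction passed in 76, the long in 75 and the sum in 101 events, and leaving out 1 mouse gave 90 to 159, 108 to 164 and 129 to 221. Events whose change differed from Q150 HOMO numbered 12 to 64 when 1 Q175 HOMO or WT mouse was left out, and no Q150 mouse was left out. The difference of mean exclusion was 0.65 points when events averaged 50 counts or more (exact p = 0.0357) and 0.85 points with all 10 WT mice (exact p = 0.014), and both passed. The WT mice added in the latter are of the Q150 set and differ in age, strain and file set, which that test mixes with genotype. As a share of summed counts the difference was 0.47 points (exact p = 0.214) and for the median event 0.63 points (exact p = 0.286), and neither passed. Among mice numbered over 1000 it was 0.74 points with no overlap (exact p = 0.2, the smallest that 3 against 2 mice allow). Leaving out 1 mouse gave 0.56 to 0.76 points. The cause of these shifts was not tested. Calls were less frequent at low depth. No paired analysis was possible because replicate numbers were given in accession order and pair no mice, and HOMO and WT share none in the set.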
